A study of Mus musculus with 9 samples.

Results

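The HOX genes are the members of the 4 mouse HOX clusters, chosen here by symbol alone: Hox, a cluster letter from a to d and a paralogue number. The rule found 39 of the 27179 genes listed, 11 of HoxA, 10 of HoxB, 9 of HoxC and 9 of HoxD, and it used no measured value. Their RNA was measured in 9 libraries of lineage-negative, tdTomato-positive cells sorted from the fibrous tissue around an implant in the mouse tibia, taken 2 weeks after surgery. The 5 Grem1 conditional knockout (cKO) libraries came from Lepr-CreERT;Tdtomato;Grem1fl/fl mice, and the 4 control libraries from Lepr-CreERT;Tdtomato mice, which carry the Cre and the reporter but no floxed Grem1. Mice of both groups received tamoxifen and an implant, so no library shows tissue without either. Lepr drives the inducible Cre, so the deletion and the tdTomato mark reach only cells that expressed Lepr when tamoxifen was given, and their descendants. The labels do not say whether each library is a separate animal, and the p-values therefore measure the spread between these libraries, which may be technical.

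HOX proteins are transcription factors that give cells their position along the body axis and along the limb. The genes of a cluster lie in the order in which they act, from low numbers at the head end to high numbers at the tail end and the limb tip. In the limb, group 10 genes pattern the upper segment that holds the femur, group 11 genes the middle segment that holds the tibia, and group 13 genes the foot and digits. Adult stromal and periosteal cells keep part of the HOX pattern of the place where they arose. HOX proteins bind DNA through the homeodomain, which the homeobox encodes, often together with TALE-class partners of the PBX, MEIS and PKNOX families. Grem1 encodes gremlin, a secreted antagonist of bone morphogenetic proteins (BMP).

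Hoxd13 and Hoxc8 are the HOX genes that the comparison of genotypes called. As for Hoxd13, cKO replicates 1 to 4 lay above every control for Hoxa5, Hoxa7, Hoxa13, Hoxb2, Hoxc5 and Hoxd11. In all, these replicates lay wholly above the controls for 7 of the 33 tested HOX genes and wholly below for 2. Among all genes tested 27.5% did so in either direction. Chosen here were the called genes together with Hoxa13 (a paralogue of Hoxd13) and Hoxd11 (of the same cluster as Hoxd13). Their homeoboxes are shown to let a reader see how far the genes differ where HOX genes are most alike, since a read can be counted for a gene only where its sequence differs from the others. The sequences are 180 bases of coding DNA from GENCODE M21 transcripts, 5′ to 3′, and the capitals in the other genes mark bases that differ from those of Hoxd13 at the same place.
Hoxd13: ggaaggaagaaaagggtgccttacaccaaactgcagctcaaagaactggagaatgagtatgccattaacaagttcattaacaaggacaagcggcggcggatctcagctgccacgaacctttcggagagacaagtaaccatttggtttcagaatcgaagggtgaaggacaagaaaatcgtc
Hoxa13: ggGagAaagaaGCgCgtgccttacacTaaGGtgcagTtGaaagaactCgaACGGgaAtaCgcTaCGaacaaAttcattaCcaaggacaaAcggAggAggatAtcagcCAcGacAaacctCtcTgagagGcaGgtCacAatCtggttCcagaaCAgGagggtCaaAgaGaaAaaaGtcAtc
Hoxd11: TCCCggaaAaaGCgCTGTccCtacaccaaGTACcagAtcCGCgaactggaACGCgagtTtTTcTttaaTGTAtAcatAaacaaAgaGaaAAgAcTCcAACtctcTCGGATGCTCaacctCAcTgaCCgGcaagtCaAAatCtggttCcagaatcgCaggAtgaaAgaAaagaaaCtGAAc
Hoxc8: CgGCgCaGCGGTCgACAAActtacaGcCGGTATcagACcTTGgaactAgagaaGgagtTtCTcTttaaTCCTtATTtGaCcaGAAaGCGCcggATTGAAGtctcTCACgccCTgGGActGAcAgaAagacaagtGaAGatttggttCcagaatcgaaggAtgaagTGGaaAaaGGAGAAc
Hoxa13 differed from Hoxd13 at 47 of these bases (73.9% identity), Hoxd11 at 73 (59.4%) and Hoxc8 at 84 (53.3%). Over all 39 homeoboxes the closest pair shared 93.9% of bases, and the longest run shared by any pair was 52 bases, shorter than the 150-base reads. In the whole annotated transcripts, no stretch of 50 bases in Hoxd13, Hoxa13 or Hoxa10 also occurred in another gene, while 0.432% of those in Hoxc8 and 10.04% of those in Hoxd11, which overlaps Gm28309, did.

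Grem1 itself fell in the knockout, with normalized counts of 83.2, 46.4, 125, 133 and 60.8 in the cKO libraries against 736, 517, 676 and 356 in the controls (6.57-fold lower, adjusted p = 0.00781). A normalized count is the number of reads of a gene divided by 1 size factor per library, as the authors deposited it. The test was limma's on log2(normalized count + 1) with Benjamini-Hochberg adjustment over the 15832 genes that had at least 10 in at least 4 libraries, called at an adjusted p under 0.05, and all fold changes below are on that scale. Libraries held 43.5 to 87.2 M recovered reads in the cKO group and 44.8 to 53.4 M in the controls. The labelled cell type was checked by 12 stromal markers, whose summed level was 4501560 to 9324320 in cKO libraries and 5794000 to 8291200 in controls, with none at 0. Most of that sum is collagen and decorin reads. Lepr itself, which marks the sorted cells, had 15785, 13109.8, 9822, 13845 and 1347 in cKO libraries against 18730.3, 5379.9, 40594 and 935 in controls, so cKO replicate 5 and control 4 were low in it (adjusted p = 0.976). Of the other stromal markers, Pdgfra was called higher (2.12-fold, adjusted p = 0.0229), and Pdgfrb lay below all 4 controls in the 5 cKO libraries without a call (log2 fold change -0.49, adjusted p = 0.0739). Markers of other cell types were present and differed: all 16 skeletal muscle markers rose (sum 97528.5 to 764695 in cKO libraries, 3522.78 to 6737.95 in controls), 7 of 12 Schwann markers rose (60680.5 to 139758 in cKO libraries, 25785 to 32657.8 in controls), and 9 of 12 chondrocyte markers fell (165076 to 1288490 in cKO libraries, 2007350 to 4778870 in controls). The edgeR and DESeq2 tests called 1 and 11 of the 12 chondrocyte markers, 14 and 15 of the muscle markers, and 5 and 10 of the Schwann markers. Of the 12 endothelial markers 3 fell (6615.16 to 11525.2 in cKO libraries, 9141.65 to 208112 in controls). Of the 15 tested macrophage and blood markers 1 fell (25391.1 to 553724 in cKO libraries, 87330.7 to 281381 in controls). Here edgeR and DESeq2 called 7 and 10 of the endothelial markers, and 1 and 2 of the macrophage and blood markers. No marker of these lists was at 0 in every library of a group. Since sorted cells were measured in bulk, fewer cells of a type and less RNA per cell cannot be told apart.

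In both genotypes group 10 genes had the highest level of the HOX genes, and most of the 39 members were detected. Between 23 and 34 members had at least 1 read in a cKO library, and between 28 and 32 in a control library. 19 members had reads in all 9 libraries, and 16 had a mean normalized count of at least 100. Hoxb1, Hoxb13 and Hoxd12 had no read in any library, which allows up to 2.02 to 3.97 normalized counts in a cKO library and 3.23 to 4.19 in a control library (3 reads, counting error only). Hoxb8, Hoxc13 and Hoxd1 had reads but did not reach the level needed for testing, which left 33 members tested.

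To compare levels between genes, normalized counts were divided by the exon length of each gene in kilobases. On this per-length scale Hoxa10, which patterns the upper limb segment, ranked first of the 39 in 6 libraries and its paralogue Hoxc10 in the other 3. Hoxa10 averaged 1025 ± 170.0 normalized counts per kb in cKO libraries and 768 ± 88.9 in controls, and Hoxc10 averaged 495 ± 266 in cKO libraries and 718 ± 118 in controls (SD, n = 5 and 4). The summed level of all members lay between 3215 and 4326 normalized counts per kb in cKO libraries and between 3108 and 3890 in controls. Group 10 held 35.1% to 60.6% of that sum in cKO libraries and 36.3% to 52.6% in controls. The ranges of the summed level and of the group 10 share overlapped between genotypes. Group 11, which patterns the segment of the tibia, held 3.71% to 10.3% in cKO libraries and 3.67% to 11.8% in controls.

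**Figure D1:**
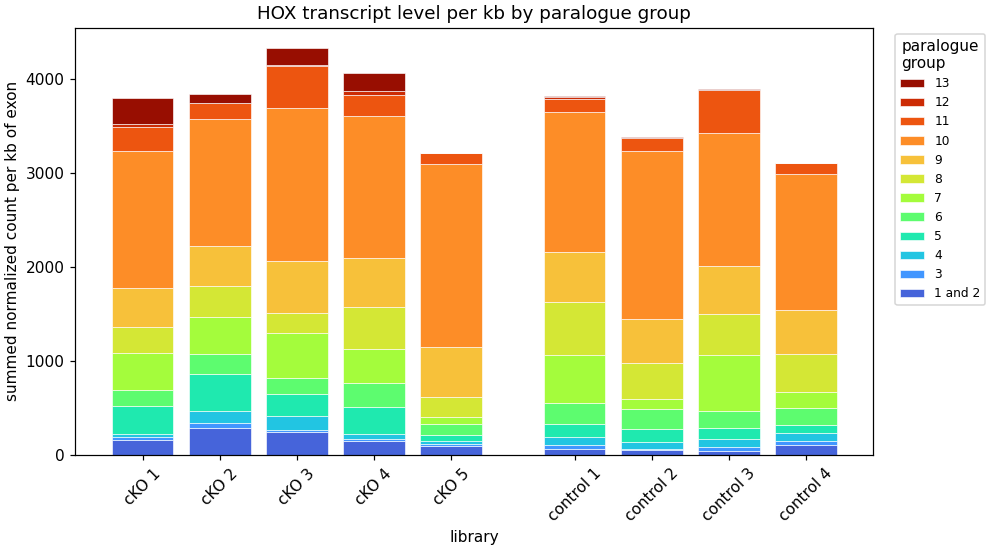
Summed normalized count per kb of exon of the HOX genes in each library, stacked by paralogue group (groups 1 and 2 as 1 band), with cKO libraries left of controls. Group 13, the darkest band at the top, holds 2.41% to 7.41% of the sum in cKO replicates 1 to 4, 0% in cKO replicate 5 and 0.11% to 0.478% in the controls.

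Across the 33 tested members, 1 rose (Hoxd13) and 1 fell (Hoxc8), while among all genes tested 4.61% rose and 2.87% fell (7.48% in either direction). The median log2 fold change of cKO over control was 0.26 for the tested HOX genes and -0.0039 for all genes, with 21 members above 0 and 12 below. By position along the axis, groups 1 to 4 had a median of 0.24 over 10 tested members, groups 5 to 8 of 0.092 over 10, and groups 9 to 13 of 0.26 over 13. By cluster the medians were 0.37 for HoxA, 0.34 for HoxB, -0.036 for HoxC and 0.24 for HoxD. The 2 calls among 33 members stand near this background, so they are given as results on single genes and not on the family. Libraries of the groups did not overlap for 2 of the 33, against 11.4% of all genes: Hoxd11, which lay wholly higher in cKO (6.82% of all genes), and Hoxc8, which lay wholly lower (4.6%).

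**Figure D2:**
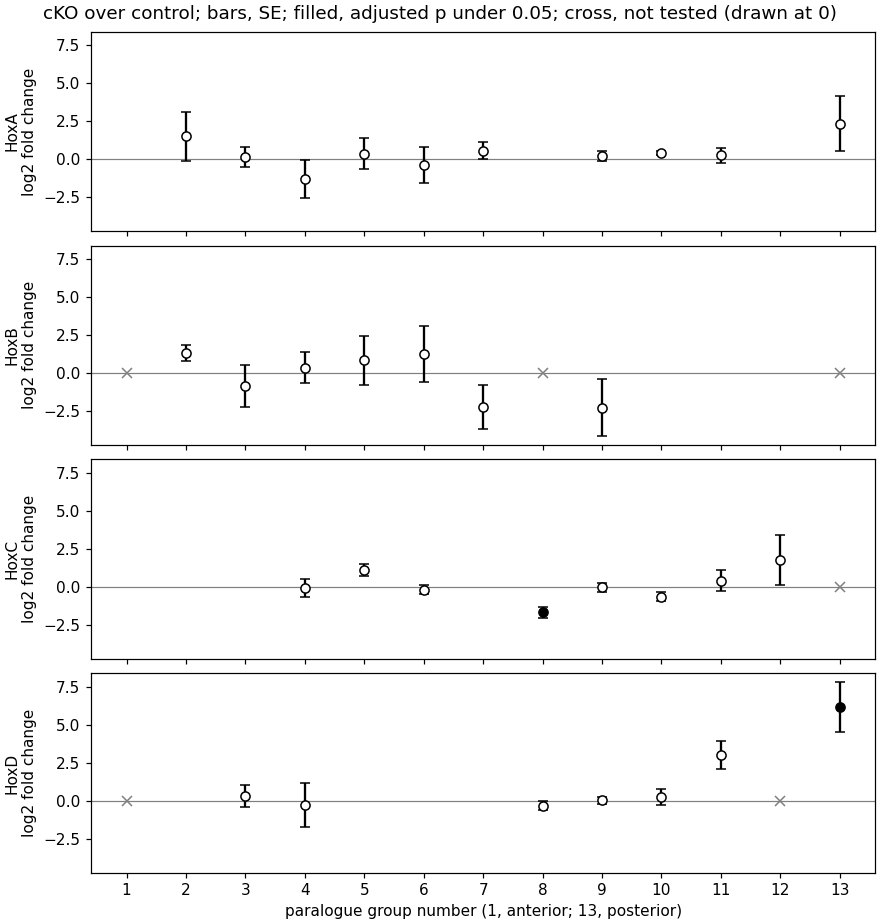
Log2 fold change of cKO over control for the HOX genes shown, by paralogue number in 1 panel per cluster, with bars for ± 1 SE of the limma fit over 5 cKO and 4 control libraries. Filled points are the called members, Hoxd13 (6.17) and Hoxc8 (-1.68), and crosses at 0 stand for the 6 members that were not tested.

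Hoxd13, the last gene of the HoxD cluster and the factor that patterns digits, was read in cKO libraries only. Its normalized counts were 287, 173, 154, 252 and 0 in the cKO libraries against 0, 0, 0 and 0 in the controls. In whole reads these were 390, 257, 227, 349 and 0 in the cKO libraries against no read in any control. Thus 4 of the 5 cKO libraries held Hoxd13 RNA, and cKO replicate 5 had no read, as the controls. The mean of the cKO libraries was at least 44.4-fold higher than the floor of 3 reads in each control library (fitted log2 fold change 6.17 ± 1.62 SE, adjusted p = 0.0481). The call was not kept without any single library other than cKO replicate 5 (adjusted p = 0.0906 to 0.119), and without that replicate it was 0.000226. The 4 libraries with Hoxd13 reads were also the 4 deepest, at 76.3 to 87.2 M reads. cKO replicate 5 held 43.5 M and the controls 44.8 to 53.4 M. With every library thinned to the smallest read total, limma gave a log2 fold change of 6.23 (adjusted p = 0.0479). Thinning leaves libraries without a read at 0 and removes only part of 227 to 390 reads. It equalizes read totals only, and other differences between the deeper and the shallower libraries were not tested. All 16 muscle markers and 7 of the 12 Schwann markers were also called higher in the knockout. In cKO replicate 5, without a Hoxd13 read, the muscle (97528.5) and Schwann (60680.5) sums were the lowest of its group and above every control. In cKO replicate 3, with 227 Hoxd13 reads, these sums were 112049 and 73545.1. The part of these markers in the result was not tested. In the authors' deposited table Hoxd13 had a log2 fold change of 9.51 and an adjusted p of 4.4e-06.

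The other group 13 genes were low or absent in controls. Hoxa13, the partner of Hoxd13 in the foot, had normalized counts of 330.5, 56.5, 259, 188 and 0 in cKO libraries against 16.2, 40.0, 32.3 and 0 in controls. As for Hoxd13, cKO replicates 1 to 4 lay above every control and cKO replicate 5 had no read, and the difference was not called (log2 fold change 2.33, 95% interval -1.68 to 6.34, adjusted p = 0.436). Without cKO replicate 5 it was 3.82, with an adjusted p of 0.0518. Hoxc13, a gene of hair and nail as well as of the tail end, had 79.5, 0, 19.0, 29.6 and 0 in cKO libraries against 0, 0, 0 and 8.38 in controls, too few libraries for the test. Together with Hoxb13, at 0 throughout, group 13 held 7.41%, 2.41%, 4.03%, 4.67% and 0% of the summed HOX level per kb in the cKO libraries against 0.172%, 0.478%, 0.336% and 0.11% in the controls.

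Hoxd11, which shapes the middle limb segment together with Hoxa11, had low counts of 51.5, 40.4, 45.4, 41.2 and 18.5 in cKO libraries against 6.76, 15.2, 0 and 2.79 in controls. Every cKO library lay above every control, yet the difference was not called (log2 fold change 3.04, 95% interval 0.97 to 5.10, adjusted p = 0.0722). Without cKO replicate 5 the adjusted p was 0.037. Of its exon bases 10.8% are shared with an overlapping gene on the same strand. Hoxa11, at a much higher level, had 554, 363, 949, 469.7 and 242 in cKO libraries against 307, 302, 1006 and 240.3 in controls, with overlapping groups (0.26, interval -0.85 to 1.38, adjusted p = 0.767). Since 35.0% of the exon bases of Hoxa11 lie opposite its antisense RNA Hoxa11os and no source used here gives the strand setting of the counting, reads of the pair may be mixed.

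**Figure D3:**
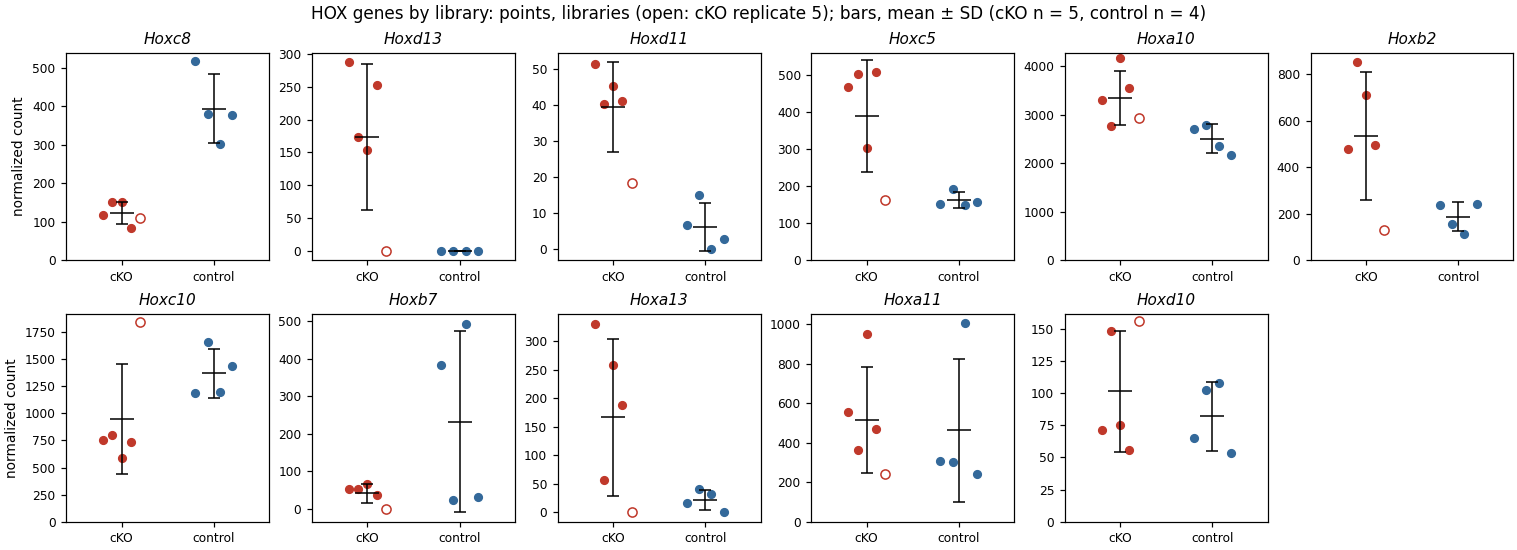
Normalized count in each library on a linear axis for the HOX genes with values given by library, cKO left of control, with the mean and SD as bars and cKO replicate 5 as an open point. Hoxc8 separates the groups at 83.8 to 152 in cKO libraries and 301 to 517 in controls, and Hoxd13 lies at 154 to 287 in 4 cKO libraries and at 0 in the other 5 libraries.

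cKO replicates 1 to 4 lay above every control for Hoxd13, Hoxd11, Hoxa13, Hoxa5, Hoxa7, Hoxb2 and Hoxc5. These are 7 of the 33 tested members, with 2 more below, against 27.5% of all genes in either direction. Of the 7, Hoxd13, Hoxd11 and Hoxa13 were picked after their values were seen, and the other promoters are not shown. Because gremlin acts on the BMP pathway, the 250 bases before the starts of Hoxd13, Hoxd11 and Hoxa13 are shown. They come from RefSeq on GRCm38.p6, while the authors' build is mm39, and for Hoxd11 the most downstream start of the table was taken. Capitals mark GGCGCC, a palindrome that SMAD proteins of the BMP pathway can bind, and TGATNNAT on either strand, the motif of PBX and HOX proteins bound side by side.
Hoxd13, chr2:74667975-74668224, plus strand: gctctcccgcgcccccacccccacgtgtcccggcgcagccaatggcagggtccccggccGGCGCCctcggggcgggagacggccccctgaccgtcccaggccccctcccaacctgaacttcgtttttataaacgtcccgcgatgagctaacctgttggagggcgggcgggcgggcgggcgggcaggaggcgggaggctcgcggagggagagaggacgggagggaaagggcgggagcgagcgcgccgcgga
Hoxd11, chr2:74682073-74682322, plus strand: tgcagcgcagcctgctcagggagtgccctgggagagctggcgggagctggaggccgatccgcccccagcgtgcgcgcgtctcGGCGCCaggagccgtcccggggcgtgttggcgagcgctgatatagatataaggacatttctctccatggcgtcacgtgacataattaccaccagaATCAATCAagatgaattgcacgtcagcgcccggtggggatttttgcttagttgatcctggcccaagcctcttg
Hoxa13, chr6:52260881-52261130, minus strand: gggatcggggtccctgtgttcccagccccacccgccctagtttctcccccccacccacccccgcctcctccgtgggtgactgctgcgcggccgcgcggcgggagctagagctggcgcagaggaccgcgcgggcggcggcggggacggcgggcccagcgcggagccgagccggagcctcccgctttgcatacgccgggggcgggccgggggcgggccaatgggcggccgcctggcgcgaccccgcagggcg
GGCGCC was in 5 of the 24 HOX promoters of the table (those of Hoxd13, Hoxd11, Hoxd3, Hoxd1 and Hoxa10) and in 9.59% of all 32851 promoters. TGATNNAT was in 4 of the 24 and in 7.68% of all. These matches describe letters in the window and say nothing of binding in these cells. The Hoxc8 promoter was not analysed here.

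Hoxc8, a trunk gene of the HoxC cluster that is also active in limb mesenchyme, fell in the knockout. Its normalized counts were 118, 151, 152, 83.8 and 109.8 in the cKO libraries against 517, 381, 301 and 377 in the controls. Every cKO library lay below every control, and cKO replicate 5 sat with its group. The mean was 123 ± 28.9 in cKO libraries and 394 ± 89.9 in controls (SD, n = 5 and 4), a 3.21-fold lower level (log2 fold change -1.68 ± 0.34 SE, adjusted p = 0.0206). The call was not kept without cKO replicate 1 (adjusted p = 0.0535) or 4 (0.0518) or without control replicate 1 (0.0649), 2 (0.059) or 4 (0.0603), with log2 fold changes of -1.54 to -1.80 over the 9 libraries left out in turn. Chondrocyte markers fell in the same comparison, with cKO replicate 5 the highest of its group (1288490), and their part in the Hoxc8 result was not tested. In the authors' deposited table its log2 fold change was -1.68 with an adjusted p of 4.52e-07.

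The neighbours of Hoxc8 in the HoxC cluster were not called. Hoxc6 averaged 314 ± 58.3 in cKO libraries and 359 ± 74.3 in controls (log2 fold change -0.18, 95% interval -0.81 to 0.44), and Hoxc9 averaged 426 ± 143 in cKO libraries and 415 ± 45.5 in controls (-0.03, interval -0.70 to 0.65), with n = 5 and 4. Hoxd8, the other group 8 gene with a substantial level, averaged 699 ± 287 in cKO libraries and 833 ± 141 in controls (-0.32, interval -0.98 to 0.33). The 95% interval of Hoxc8 was -2.44 to -0.93. The Hoxd8 interval overlapped it, those of Hoxc6 and Hoxc9 lay above it, and the differences between the genes were not tested. Group 8 held 4.96% to 11.2% of the summed HOX level per kb in cKO libraries and 11.2% to 14.6% in controls.

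Hoxc5, which lies at the head end of HoxC, had 468, 502, 304, 507 and 164 in cKO libraries against 151, 193, 149.7 and 157 in controls. The first 4 cKO libraries exceeded every control, cKO replicate 5 lay among them, and the difference was not called (log2 fold change 1.14, 95% interval 0.26 to 2.02, adjusted p = 0.0985). Hoxc10, the second HOX gene by level, had 754, 798, 592, 737 and 1843 in cKO libraries against 1184, 1661, 1202 and 1438 in controls. Its first 4 cKO libraries lay below every control and cKO replicate 5 above them all (-0.65, interval -1.34 to 0.04, adjusted p = 0.206). Without cKO replicate 5 both passed the test, Hoxc5 with a log2 fold change of 1.43 (adjusted p = 0.00923) and Hoxc10 with one of -0.92 (0.0072). Hoxc5 and Hoxc10 share 5.37% and 8.70% of their exon bases with each other in GENCODE M21. No source used here gives the annotation of the counting, so how reads there were counted is not known.

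**Figure D4:**
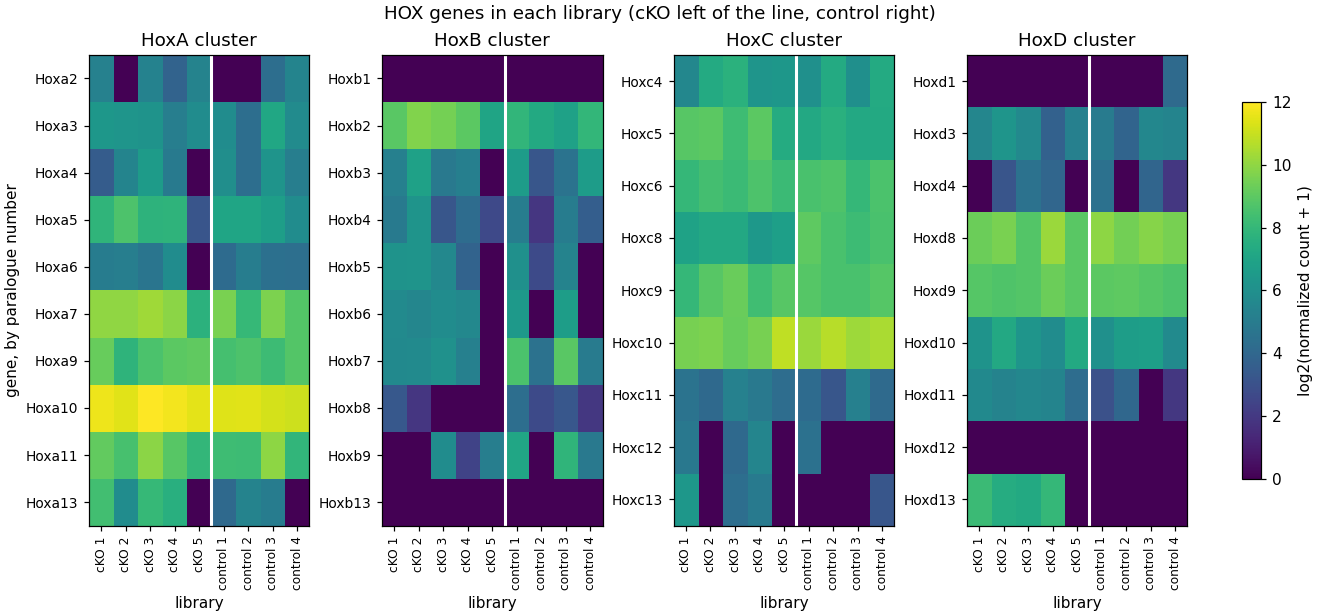
Normalized counts of HOX genes in each library, coloured by log2(value + 1), with 1 panel per cluster, paralogue numbers down the page and cKO libraries left of controls. Hoxa10, Hoxc10 and Hoxd8 are bright in every library, while Hoxd13 is at 0 in cKO replicate 5 and in all 4 controls.

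The HoxA cluster gave no call among 11 tested members by limma or by edgeR and DESeq2, and 1 at an unadjusted p under 0.05. That member was Hoxa10, with 3316, 2777, 4179, 3560.0 and 2933 in cKO libraries against 2714, 2792, 2366 and 2176 in controls. The groups overlapped, with a cKO library at 2777 and a control at 2792 (log2 fold change 0.41, 95% interval 0.08 to 0.74, adjusted p = 0.111). The cluster held 38.8% to 58.9% of the summed HOX level per kb in cKO libraries and 35.6% to 42.9% in controls. Hoxa9 averaged 449 ± 145 in cKO libraries and 369.9 ± 62.0 in controls (0.22, interval -0.51 to 0.95; SD, n = 5 and 4).

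In HoxD, the genes on the head side of Hoxd11 kept to overlapping levels. Hoxd9 averaged 481 ± 85.3 in cKO libraries and 466 ± 51.8 in controls (log2 fold change 0.04, 95% interval -0.46 to 0.54; SD, n = 5 and 4). Hoxd10 had 71.4, 148, 75.3, 55.6 and 156 in cKO libraries against 64.9, 102, 108 and 53.1 in controls (0.24, interval -0.89 to 1.38, adjusted p = 0.792). Hoxd12, which lies between Hoxd11 and Hoxd13, had no read. Hoxd3 and Hoxd4 share 62.3% and 52.3% of their exon bases with overlapping genes on the same strand, and their counts of 0 to 74.7 in any library are uncertain for that reason.

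HoxB gave no call among 7 tested members by limma or edgeR and 1 by DESeq2, which called 16.1% of all genes. By limma 1 had an unadjusted p under 0.05. That member was Hoxb2, a hindbrain and neck gene, with 481, 855, 713, 497 and 129.6 in cKO libraries against 239, 154, 115 and 242 in controls. The first 4 cKO libraries were above every control and cKO replicate 5 within them (log2 fold change 1.33, 95% interval 0.13 to 2.54, adjusted p = 0.147, and 0.00775 without that replicate). Of its exon bases 27.3% lie opposite the antisense RNA Hoxb3os. Hoxb7 had 51.5, 51.8, 65.8, 36.1 and 0 in cKO libraries against 382, 22.1, 493 and 30.7 in controls (-2.22, interval -5.45 to 1.01, adjusted p = 0.355). Its high values were in controls 1 and 3 alone, where Hoxb9 was also highest, at 138 and 227 against 0 and 27.9 in controls 2 and 4. Hoxb4, Hoxb5, Hoxb6 and Hoxb8 were likewise higher in controls 1 and 3 than in controls 2 and 4. Hoxb6 had 85.1 and 101 against 0 and 0. Hoxb2 and Hoxb3 were instead highest in control 4. The summed level of the 12 endothelial markers was 172491 and 208112 in those same controls 1 and 3 and 9141.65 and 13719 in the other two. Among the stromal markers, Lepr was at 18730.3 and 40594 in controls 1 and 3 and at 5379.9 and 935 in controls 2 and 4. Cxcl12 was at 112676 and 228864 in controls 1 and 3 and at 55047 and 18900.4 in controls 2 and 4, and Kitl was at 5380.1 and 8599 in controls 1 and 3 and at 1768.5 and 1277 in controls 2 and 4. The part of either marker group in these HoxB values was not tested.

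For several HOX genes cKO replicates 1 to 4 stood on one side of the controls. They lay wholly above the controls for 7 of the 33 tested members (Hoxa5, Hoxa7, Hoxa13, Hoxb2, Hoxc5, Hoxd11 and Hoxd13) and wholly below for 2 (Hoxc8 and Hoxc10), against 27.5% of all genes in either direction. cKO replicate 5 lay inside the range of the controls for 18 of the 33, against 53.1% of all genes. It held 43.5 M reads against 76.3 to 87.2 M in the other cKO libraries, had the lowest muscle (97528.5) and Schwann (60680.5) sums of its group and the highest chondrocyte sum (1288490), and their part in these values was not tested. Among libraries under 60 M reads, which are cKO replicate 5 and the 4 controls, limma called no HOX gene (6 at an unadjusted p under 0.05, and 0.524% of all genes called), and the deeper libraries are all cKO, so depth and genotype cannot be told apart within them. Without cKO replicate 5, 6 HOX genes were called (Hoxc8, Hoxd13, Hoxd11, Hoxc5, Hoxb2 and Hoxc10), while 22.5% of all genes were. The authors' deposited table, on all 9 libraries, called 5 of the HOX genes (Hoxc8, Hoxd13, Hoxc5, Hoxb2 and Hoxd11) and 17.1% of the genes with an adjusted p.

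Genes that work with HOX proteins, switch the clusters or share their role in limb identity were read beside them in 5 lists with 79 tested genes. In these lists 12 genes were called, 10 higher and 2 lower, against the 7.48% of all genes given above. Of the 9 TALE cofactors 3 rose and none fell (median log2 fold change 0.23). Pknox1 had 3655, 4865, 5818, 3238 and 3282 in cKO libraries against 1440.3, 2083, 2073 and 1984 in controls (2.16-fold higher, adjusted p = 0.0152). Pknox2 was 2.43-fold higher (adjusted p = 0.0281) and Meis3 1.43-fold higher (0.0485), and for all 3 genes the cKO libraries lay above every control. Pbx3, chosen after its values were seen, had 431, 242, 396, 611 and 333 in cKO libraries against 1070.1, 624, 891 and 739 in controls without passing the test (log2 fold change -1.08, adjusted p = 0.0552).

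Of the RNAs made from the HOX loci, 10 of 17 on the list were in the matrix and 6 were tested. None was called by limma, edgeR or DESeq2, and none had an unadjusted p under 0.05. Hoxa11os, the antisense partner of Hoxa11, had 487, 159.5, 763, 639 and 87.3 in cKO libraries against 179.7, 84.1, 185 and 72.7 in controls (log2 fold change 1.41, adjusted p = 0.217). Without cKO replicate 5, Hoxa11os passed the threshold (1.88, adjusted p = 0.0449). Mira, an RNA of the HoxA cluster, had 157, 229.5, 144, 125 and 50.2 in cKO libraries against 71.6, 27.6, 175 and 18.2 in controls (1.31, adjusted p = 0.28). In both, the cKO and control libraries overlapped. Mir10a, Mir10b, Mir196a-1 and Mir196a-2 had no read in any library. Mir196b had 5 to 20 reads in cKO libraries and 7 to 15 in controls, and was not called (log2 fold change -0.77, adjusted p = 0.547).

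Among 26 chromatin regulators of the clusters 2 rose and none fell (median 0.088). They were Phc1 and Cbx7, both of Polycomb complex PRC1, which keeps silent HOX genes silent. Phc1 was 1.92-fold higher (adjusted p = 0.0278), at 943 to 1774 in cKO libraries and 586 to 757 in controls. Cbx7 had 2155, 1929, 1879.5, 2005 and 554 in cKO libraries against 543, 182, 604 and 263 in controls (4.34-fold higher, adjusted p = 0.0316), and cKO replicate 5 lay within the range of the controls. The catalytic subunit Ezh2 of the other Polycomb complex was not called (-0.60, adjusted p = 0.341), nor was the activating methyltransferase Kmt2a (0.50, adjusted p = 0.127).

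Of 12 tested upstream regulators of the axis 2 rose and none fell. Of the 12, 9 are genes of retinoic acid, a classical inducer of HOX genes at the head end of the clusters, so the list was mostly of that kind. Aldh1a1, which makes retinoic acid from retinal, had 5848, 6646, 4399, 6022 and 4208 in cKO libraries against 1284, 912, 1042 and 1917 in controls (4.31-fold higher, adjusted p = 0.00189). Every cKO library was above every control by a wide gap. The retinoic acid receptor Rarb was 4.07-fold higher (adjusted p = 0.0229), at 458 to 1770.3 in cKO libraries and 171 to 399.9 in controls. The other enzymes of this kind, Aldh1a2 (log2 fold change 0.40, adjusted p = 0.785) and Aldh1a3 (0.15, 0.863), were not called. Nor were the receptors Rxra (-0.70, 0.0655) and Rarg (-0.34, 0.16). Cdx2 and Cdx4, the caudal factors that act on HOX genes in the embryo, had no read.

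In the list of 26 tested limb identity genes 3 rose and 2 fell. Tbx5, the factor that marks the forelimb, had 549, 311, 345, 405 and 205 in cKO libraries against 2.7, 2.76, 75.4 and 39.1 in controls (log2 fold change 4.59 ± 0.95 SE, adjusted p = 0.0213). All cKO libraries exceeded all controls, in cells taken from a hindlimb bone. Tbx4, its hindlimb counterpart, was 3.47-fold higher as well (adjusted p = 0.0277), with 582 in cKO replicate 5 inside the controls' 291 to 657. Pitx1, which sets hindlimb identity upstream of Tbx4 and is named here after its values were seen, had 947, 194, 605, 867 and 1985 in cKO libraries against 1786, 1993, 2216 and 2023 in controls and was not called (-1.47, adjusted p = 0.111). En1, a gene of the ventral limb ectoderm that also marks some fibroblasts, was 4.32-fold higher (adjusted p = 0.0244), at 198 to 424 in cKO libraries and 34.5 to 91.0 in controls.

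The members of this list that fell were Nkx3-2 and Pax1, which act in cartilage and girdle formation. Nkx3-2 was 3.81-fold lower (adjusted p = 0.0184), with 57.9 to 165 in cKO libraries and 398 to 507 in controls. Pax1 had 306, 151, 123, 402 and 1658 in cKO libraries against 2259, 1735, 2457 and 2736 in controls (6.88-fold lower, adjusted p = 0.0337). Pax1 was thus highest among cKO libraries in replicate 5, which also had the highest chondrocyte sum of that group, and the part of those cells was not tested. Of the 12 called genes of the 5 lists, 2 kept their call whichever library was left out, Aldh1a1 (adjusted p at most 0.00944) and Pknox1 (at most 0.0416). Each of the other 10 lost its call without at least 1 library, with a highest adjusted p between 0.0551 and 0.113, and none of them without cKO replicate 5.

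**Figure D5:**
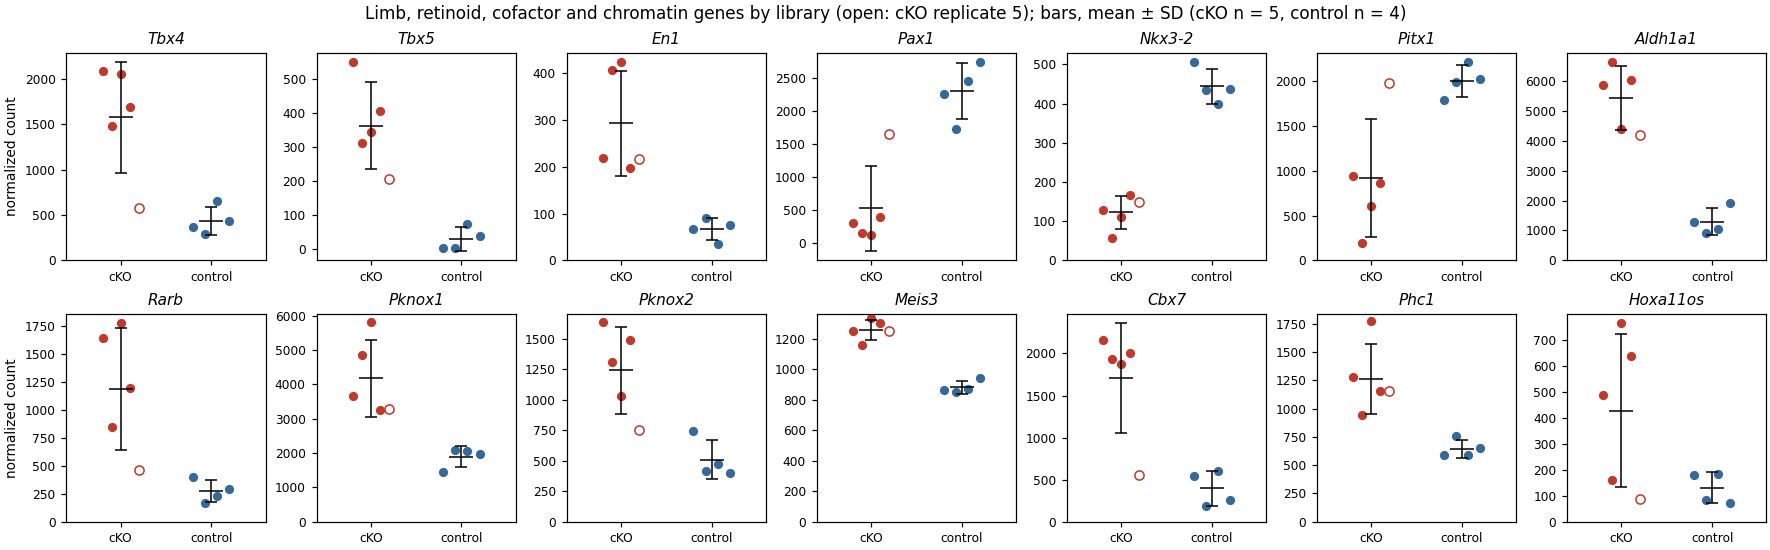
Normalized count in each library on a linear axis for 14 genes of the companion lists, cKO left of control, with the mean and SD as bars and cKO replicate 5 as an open point. Aldh1a1 lies at 4208 to 6646 in cKO libraries and 912 to 1917 in controls, and Tbx5 at 205 to 549 in cKO libraries and 2.7 to 75.4 in controls.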

How the data were processed

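RNA of 5 cKO and 4 control libraries was sequenced in paired reads of 150 bases, per the labels' protocols. The values the authors deposited are a signal, called normalized counts here: the count of each gene over the size factor of its library. STAR, featureCounts, DESeq2 and mm39 are named in the submitters' processing notes, without versions. No source used here gives the annotation or the strand setting. A results table, also deposited by the authors, holds a log2 fold change with its standard error, a score (their test statistic) and p-values, per the file headers. It is quoted only where named.

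Values of each library were whole multiples of 1 step (tolerance 0.01), which gave whole reads for at least 99.99% of values above 0; the count tests run on them called 786 (edgeR 4.0.16, quasi-likelihood) and 2546 genes (DESeq2 1.42.0). The main fit was limma 3.58.1 in R 4.3.3, two-sided, with genotype as the only term, and was tested on simulated data. Fold changes are of mean log2(normalized count + 1): where libraries lie near 0 they can exceed, fall short of or differ in sign from a ratio of the group means. Intervals are 95% and floors cover counting error only. Symbols came from a GRCm38.p6 gene table (25275 IDs matched, 1904 did not); exon lengths, overlaps and homeoboxes came from GENCODE M21 on GRCm38, a build other than mm39.

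The members and gene lists were chosen with earlier results of these data known. Values by library are given for each called HOX gene, the 8 of smallest p among the rest and members of groups 10 to 13 with a mean of at least 50; from each companion list, up to 4 called genes a direction or the 2 of smallest p. One HOX gene that the rule picks is counted but not reported here. Other genes named were picked after their values were seen. Alternatives were another pseudocount, filter, scaling or tool, a replicate block, libraries left out, libraries under 60 M reads and thinning to equal depth.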

Additional observations from a re-analysis of the deposited data

Results flagged for a closer look

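For the 26 genes examined by library, the highest and lowest library of each group was set against the others of its group by Dixon's ratio on log2(normalized count + 1). Of 52 groups 8 stood out, and the Hoxd13 controls, all at 0, had no spread to examine. Chance gives about 1 in 20 for normally distributed values, while some groups here held values at 0. In 6 of the 8 the library was cKO replicate 5: it was the lowest cKO library for Hoxd13 (0), Hoxd11 (18.5), Hoxb7 (0), Cbx7 (554) and Tbx4 (582), and the highest for Hoxc10 (1843). Control replicate 3 was the highest control for Hoxa11 (1006), and control replicate 1 the lowest for Pknox1 (1440.3).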

How the results depend on the processing

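Of the 26 genes examined by library under 21 alternatives, 413 of the results kept direction and side of the threshold. The call was lost in 114 and gained in 11, and 6 reversed. Only the genes called in the main fit (2 HOX and 12 companion genes) could lose a call. All 6 reversals were among libraries under 60 M reads. The causes were not tested beyond the values here. The number of HOX genes called (2) stayed at 2 with a pseudocount of 5, trimmed-mean or upper-quartile scaling and thinning to equal depth (7.21% to 8.15% of all genes called). It was 1 with a pseudocount of 0.5 (7.06% of all genes), no filter (4.34%), a filter of 50 (8.25%) or edgeR (4.96%), and 4 with DESeq2 (16.1%). With 1 library left out it was 6 without cKO replicate 5 (22.5% of all genes) and 0 or 1 otherwise (2.38% to 4.23%). The count was 0, with 5 or 6 at an unadjusted p under 0.05 by limma, without cKO replicate 1 or 4 or control replicate 1, 2 or 4. Without controls 1 and 3 together it was 0 (4 at an unadjusted p under 0.05, and 2.13% of all genes called). Libraries under 60 M reads leave cKO replicate 5 alone in its group, so that its spread is assumed to equal the controls'. The companion count (12) was 9 to 18 under other settings, where 4.34% to 17.1% of all genes were called. With 1 library left out it was 3 to 26 (2.38% to 22.5% of all genes). Without controls 1 and 3 together it was 3 (2.13%). Among libraries under 60 M reads the log2 fold changes of Hoxb2 (-0.46), Hoxc10 (0.44), Hoxa13 (-3.63), Hoxa11 (-0.68), Hoxa11os (-0.45) and Mira (-0.0064) reversed. Replicate numbers did not pair the samples (correlations of deviations 0.0705, 0.0171, -0.00621 and -0.0109); a replicate block, in which cKO replicate 5 has no partner and drops out of the fold changes, called 5 HOX genes and 17 companion genes (17.1% of all genes). Hoxd13 lost its call with a pseudocount of 0.5 (adjusted p = 0.0509), no filter (0.0566), a filter of 50 (0.0632) and edgeR (0.0532), and Hoxc8 kept it under each of these. HOX genes under about 4 normalized counts cannot be told from absent at this depth.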
